A study of Mus musculus with 12 samples.

Results

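GIMAP proteins (GTPases of immunity-associated proteins) are a family of GTP-binding proteins made mainly by lymphocytes. The members described here are the genes of the count table whose symbol is *Gimap1*, *Gimap3*, *Gimap4*, *Gimap5*, *Gimap6*, *Gimap7*, *Gimap8* or *Gimap9*, which are 8 of its 49585 genes. All 8 passed the filter on low counts that left 13118 genes for testing, and each was counted in all 12 samples.

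GIMAP proteins share a GTP-binding domain of the AIG1 type, named after a plant gene, and several of them sit on intracellular membranes, where they assemble on binding GTP. They are known above all for the survival of lymphocytes: loss of GIMAP5 in rats and mice leaves few naive T cells, and loss of GIMAP1 removes mature T and B cells. Other members have been tied to apoptosis, to autophagy and to the quiescent state of naive T cells.

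The samples are lymph node (LN) T cells sorted by surface markers for a naive phenotype, which by the methods includes absence of CD44, and for the TCRβ chain, from male mice aged 6 to 10 weeks. B6 CD4+ and B6 CD8+ T cells came from C57BL/6 (B6) mice, in which *Cd4* and *Cd8* are intact. CD8.1 and CD8.2 T cells came from homozygous CD8 Dual mice (8in4 in the sample labels), in which both *Cd4* alleles carry the coding sequences of CD8α.1 and CD8β and make no CD4, and *Cd8* still supplies CD8α.2 and CD8β. CD8.1 T cells carry the co-receptor encoded at *Cd4*, and CD8.2 T cells the one encoded at *Cd8*. Each of the 4 groups has 3 samples of RNA from pooled sorted cells, so the spread between samples is that between pools. Counts per sample came to 21201337 to 22750616 in B6 CD4+, 20195646 to 23041779 in CD8.1, 20386247 to 27637080 in B6 CD8+ and 18667474 to 37110502 in CD8.2 T cells. Levels are given as CPM (the count scaled to the library total) with TMM scaling factors, and a gene was called different at an adjusted P under 0.05 in edgeR (Benjamini-Hochberg over the 13118 tested genes).

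Lineage genes were used to check the sample labels. *Cd4* stood at 1004, 995 and 908 CPM in the B6 CD4+ samples, 51.5, 50.6 and 47.2 in CD8.1, 0.287, 0.109 and 0.337 in B6 CD8+ and 1.79, 1.11 and 1.52 in CD8.2. *Cd8a* stood at 0.682, 1.34 and 1.49 CPM in the B6 CD4+ samples, 179, 196 and 201 in CD8.1, 1389.9, 1479 and 1400.1 in B6 CD8+ and 1432, 1492 and 1455 in CD8.2. CD8.1 T cells thus lie between the B6 groups in both genes, and what their reads from the altered *Cd4* locus were counted as was not tested. *Zbtb7b*, which encodes the helper-lineage factor ThPOK, stood at 159, 154 and 164 CPM in B6 CD4+, 117, 173 and 172 in CD8.1, 1.19, 0.691 and 0.914 in B6 CD8+ and 2.00, 2.11 and 1.60 in CD8.2 T cells. By *Zbtb7b*, CD8.1 T cells were on the helper side and CD8.2 T cells on the cytotoxic side of the same gap, with no overlap. The 10 T cell markers summed to between 6419 and 7605 CPM in the 12 samples, with *Thy1* the most abundant when all samples are pooled and 0 of the 10 at 0 in any of them. Libraries differed from their replicates to unequal degrees. CD8.2 replicate 3 had the highest total count, 37110502, the lowest TMM factor, 0.924, and a *Gm42418* share of 3.14% of counts, against 0.0878% to 0.888% in the other 11 samples. It differed from replicates 1 and 2 by a chi-square per gene of 83.7 and 55.1, against 13.0 between those replicates. CD8.1 replicate 1 differed from replicates 2 and 3 by 30.4 and 31.7, against 8.48 between those. *Gimap* calls that change without either library are given with and without it.

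The family as a whole took 0.286% ± 0.011 of all counts in B6 CD4+ T cells (SD, n = 3), 0.275% ± 0.0056 in CD8.1, 0.239% ± 0.0055 in B6 CD8+ and 0.242% ± 0.012 in CD8.2. The 8 genes summed to 2678, 2755 and 2843 CPM in the B6 CD4+ samples, 2646, 2859 and 2774 in CD8.1, 2360.4, 2366 and 2406 in B6 CD8+ and 2526, 2529 and 2469.9 in CD8.2. Every sample of the helper side was above every sample of the cytotoxic side in this sum. *Gimap3*, *Gimap4* and *Gimap6* together made up 76.9% of the summed *Gimap* CPM in B6 CD4+, 76.7% in CD8.1, 75.3% in B6 CD8+ and 74.2% in CD8.2 T cells, so the sum mostly follows these genes. Per kilobase of annotated exon, the mean level over the 12 samples was 398 CPM for *Gimap4*, 250.5 for *Gimap3*, 171 for *Gimap6*, 85.9 for *Gimap9*, 52.2 for *Gimap1*, 47.8 for *Gimap8*, 33.3 for *Gimap7* and 17.4 for *Gimap5*. *Gimap4* was thus 22.9-fold above *Gimap5* on this scale. Since samples are bulk, fewer cells of a type and less RNA per cell cannot be told apart in these levels.

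**Figure D1:**
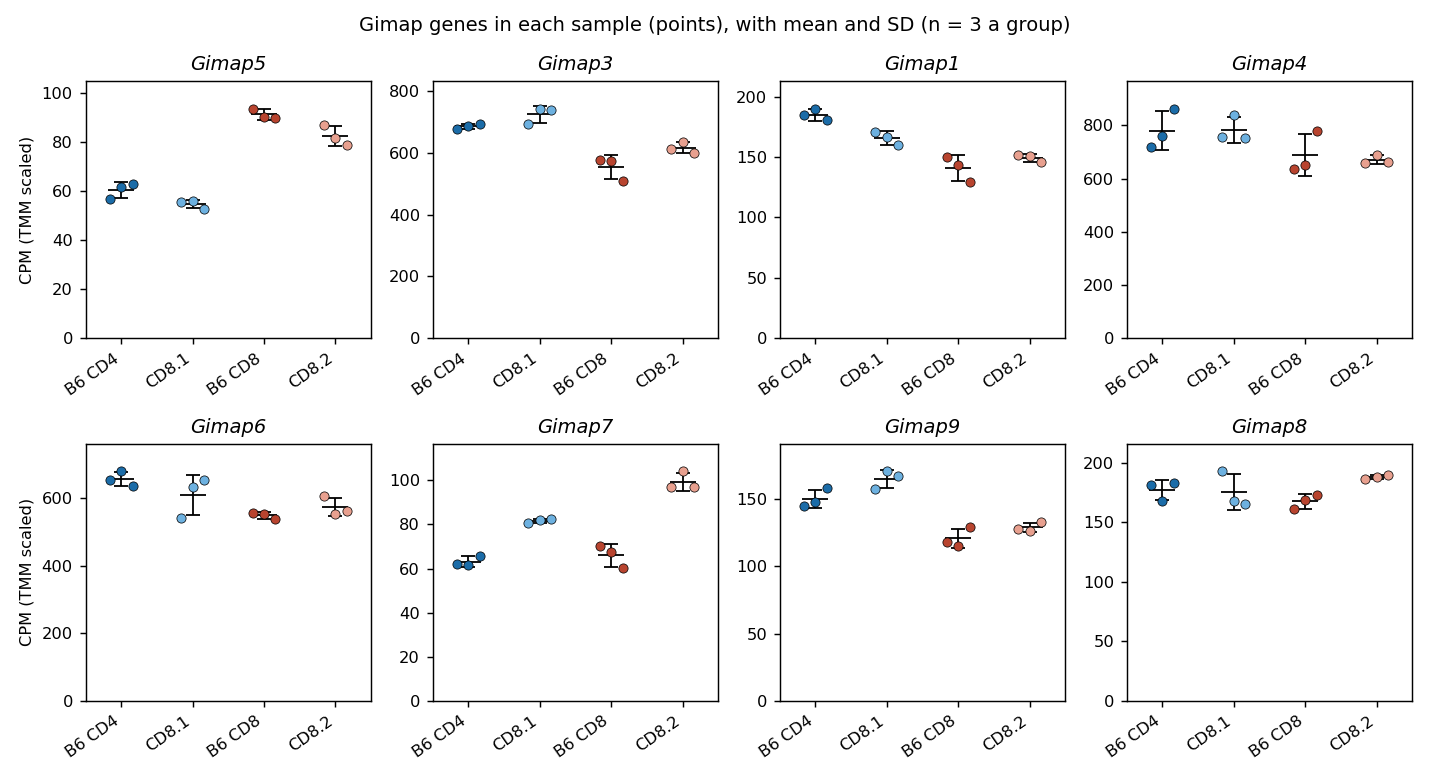
Level of each *Gimap* gene in each sample. The vertical axis is CPM with TMM scaling and starts at 0, points are the 3 samples of each group in replicate order, and black marks give the mean and SD. *Gimap5* sits at 52.7 to 62.8 CPM in the helper-side groups and at 79.0 to 93.7 CPM in the cytotoxic-side groups, and *Gimap7* at 60.2 to 70.1 CPM in B6 mice and at 80.5 to 104 CPM in CD8 Dual mice.

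The first comparison asks how the family differs between helper-lineage and cytotoxic-lineage T cells of B6 mice, and the second asks the same of CD8 Dual mice, where both subsets carry CD8. *Gimap5* was lower on the helper side in both strains, while *Gimap3* and *Gimap9* were higher on the helper side in both. *Gimap1* and *Gimap6* were also higher in B6 CD4+ than in B6 CD8+ T cells, and *Gimap7* was lower in CD8.1 than CD8.2 T cells. Between B6 CD4+ and B6 CD8+ T cells, 4 of the 8 members were called higher, against 11.4% of all tested genes, and 1 was called lower, against 11.7%. With the replicate number as a block, since the B6 samples were found to pair by it, 6 in all were called, *Gimap4* being the one added. All genes called numbered 3194 in that fit, against 3030 in the main fit. Between CD8.1 T cells and CD8.2 cells, 2 of the 8 were called higher, against 14.9% of all tested genes, and 2 lower, against 13.8%, or 6 in all with upper quartile scaling, where *Gimap1* and *Gimap4* joined. With that scaling all genes called numbered 3717, against 3771 in the main fit. The median log2 fold change of the 8 was 0.22 for B6 mice and 0.12 for CD8 Dual mice, beside -0.0011 and -0.0047 over all tested genes. By the limits of the study's gene lists, over 5-fold with a P under 0.05, taken here as unadjusted, edgeR called 0 of the 8 in B6 mice, against 3.29% of all tested genes, and 0 in CD8 Dual mice, against 3.32%. With no limit on the fold, 5 and 6 members were under an unadjusted P of 0.05, against 33% and 39.5% of all tested genes, while adjusted calls numbered 5 and 5 by DESeq2 and 5 and 4 by limma voom. All genes called numbered 3245 and 3975 by DESeq2 and 3055 and 3864 by limma voom.

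*Gimap5* encodes the member whose loss costs naive T cells their survival in rodents. It stood at 56.6, 61.6 and 62.8 CPM in the B6 CD4+ samples, 55.5, 55.9 and 52.7 in CD8.1, 93.7, 90.4 and 89.8 in B6 CD8+ and 86.9, 81.7 and 79.0 in CD8.2. All 6 samples of the helper side were below all 6 of the cytotoxic side, a gap that holds in each strain. Its log2 fold change was -0.60 between B6 CD4+ and B6 CD8+ T cells (SE 0.071, 95% interval -0.75 to -0.45, edgeR adjusted P = 1.2e-05), which is 1.51-fold lower on the helper side. It was -0.59 between CD8.1 T cells and CD8.2 cells (SE 0.071, 95% interval -0.74 to -0.44, edgeR adjusted P = 1.6e-05). *Gimap5* made up 2.19% ± 0.064 of the family's CPM in B6 CD4+ (SD, n = 3), 1.98% ± 0.10 in CD8.1, 3.84% ± 0.12 in B6 CD8+ and 3.29% ± 0.13 in CD8.2 T cells. Its groups fell in the order B6 CD8+, CD8.2, B6 CD4+ and CD8.1, and of the neighbours in that order CD8.2 and B6 CD4+ T cells differed by the test.

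*Gimap1*, which mature T and B cells need, stood at 185, 190.0 and 180.3 CPM in the B6 CD4+ samples, 171, 167 and 159.8 in CD8.1, 150.3, 144 and 129 in B6 CD8+ and 152, 151 and 146 in CD8.2. The groups do not overlap within either strain, but the gap was wide in B6 mice and narrow in CD8 Dual mice. *Gimap1* was higher in B6 CD4+ than in B6 CD8+ T cells by a log2 fold change of 0.39 (SE 0.070, 95% interval 0.24 to 0.54, edgeR adjusted P = 0.000578). Between CD8.1 T cells and CD8.2 cells its log2 fold change of 0.15 did not pass (95% interval 0.00021 to 0.30, edgeR adjusted P = 0.126). With upper quartile scaling the CD8 Dual difference did pass, at an edgeR adjusted P of 0.0482 within a range of 0.0482 to 0.424 over the 8 other settings. From the highest group to the lowest, *Gimap1* ran from B6 CD4+ through CD8.1 and CD8.2 to B6 CD8+, and 0 of the 3 steps between neighbours passed the test in edgeR, though the ends of the order differed.

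*Gimap3* is the close relative of *Gimap5* in sequence, and its protein is found at mitochondria. It stood at 676, 688 and 694 CPM in the B6 CD4+ samples, 694, 744 and 740.1 in CD8.1, 577, 575 and 509 in B6 CD8+ and 614, 635 and 601 in CD8.2. Every helper-side sample was above every cytotoxic-side sample, the reverse of *Gimap5*. The log2 fold change was 0.31 in B6 mice (SE 0.067, 95% interval 0.17 to 0.45, edgeR adjusted P = 0.00298) and 0.24 in CD8 Dual mice (SE 0.067, 95% interval 0.092 to 0.38, edgeR adjusted P = 0.0166). The CD8 Dual call ended when any of 4 samples was left out: the edgeR adjusted P was 0.0605 without CD8.2 replicate 1, 0.0637 without CD8.1 replicate 2, 0.0587 without CD8.1 replicate 3 and 0.0863 without CD8.2 replicate 3, in a range from 0.00659. With no filter on low counts it was 0.0681 in edgeR, within 0.00149 to 0.0681 over the 8 other settings. The ratio of *Gimap5* to *Gimap3* CPM was 0.0879 ± 0.0037 in B6 CD4+ (SD, n = 3), 0.0755 ± 0.0044 in CD8.1, 0.165 ± 0.0099 in B6 CD8+ and 0.134 ± 0.0069 in CD8.2 T cells. With the sides apart in both genes and in opposite directions, they must be apart in this ratio, which adds no separate evidence.

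*Gimap4* encodes a regulator of T cell apoptosis and *Gimap6* a protein that takes part in autophagy. *Gimap4* ran from 721 to 863 CPM in B6 CD4+, 754 to 841 in CD8.1, 635 to 781 in B6 CD8+ and 658 to 690.4 in CD8.2 T cells. The B6 groups overlap, through the high B6 CD8+ replicate 3, and the CD8 Dual groups do not. Its log2 fold change was 0.18 in B6 mice (95% interval -0.011 to 0.37, edgeR adjusted P = 0.179) and 0.22 in CD8 Dual mice (95% interval 0.034 to 0.41, edgeR adjusted P = 0.0732), so neither passed. The B6 difference passed with the replicate number as a block, at an edgeR adjusted P of 0.0469, within 0.0469 to 0.213 over the 8 other settings. The CD8 Dual difference of *Gimap4* passed in 4 of the 8 other settings: edgeR with upper quartile scaling (adjusted P = 0.0308), with the compared groups alone (0.0452) and with the replicate block (0.0156), and DESeq2 (0.0467). CD8.1 and CD8.2 samples were not found to pair by number, so the block fit is not counted as support here. Without B6 CD8+ replicate 3 the B6 log2 fold change of *Gimap4* was 0.27 (edgeR adjusted P = 0.0316, in a range up to 0.481 with other samples left out).

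*Gimap6* stood at 652, 679 and 636 CPM in the B6 CD4+ samples, 539.8, 632 and 652 in CD8.1, 556, 552 and 536 in B6 CD8+ and 604, 553 and 562 in CD8.2. The B6 groups are apart, and CD8.1 replicate 1 lies below all 3 CD8.2 samples. The log2 fold change was 0.26 in B6 mice (SE 0.075, 95% interval 0.097 to 0.42, edgeR adjusted P = 0.0213). This B6 call of *Gimap6* ended without B6 CD4+ replicate 2 (edgeR adjusted P = 0.0712), B6 CD8+ replicate 2 (0.0526) or B6 CD8+ replicate 3 (0.0678), and the lowest value with 1 sample left out was 0.0245. In CD8 Dual mice the log2 fold change of 0.085 did not pass (95% interval -0.075 to 0.25, edgeR adjusted P = 0.430). For *Gimap4* and *Gimap6* alike, 0 of the 3 steps between neighbouring groups passed in edgeR.

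*Gimap9* stood at 145, 147 and 158 CPM in the B6 CD4+ samples, 158, 170.3 and 167 in CD8.1, 118, 115 and 129 in B6 CD8+ and 128, 126 and 133 in CD8.2. Its helper-side samples were all above its cytotoxic-side samples. The log2 fold change was 0.32 in B6 mice (SE 0.070, 95% interval 0.17 to 0.46, edgeR adjusted P = 0.00330) and 0.36 in CD8 Dual mice (SE 0.069, 95% interval 0.21 to 0.51, edgeR adjusted P = 0.00128). The order of its groups was CD8.1, B6 CD4+, CD8.2 and B6 CD8+, and the step from B6 CD4+ to CD8.2 T cells passed. That step ended without B6 CD4+ replicate 3 (edgeR adjusted P = 0.0604) or without CD8.2 replicate 1, 2 or 3 (0.0858, 0.101 and 0.0623), in a range from 0.0295, and it was 0.116 with no filter on low counts, within 0.00501 to 0.116 over the 8 other settings.

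*Gimap7* encodes a GTPase reported to act as a dimer. It stood at 61.9, 61.8 and 65.8 CPM in the B6 CD4+ samples, 80.5, 81.8 and 82.5 in CD8.1, 70.1, 67.4 and 60.2 in B6 CD8+ and 97.1, 104 and 97.0 in CD8.2. The B6 groups overlap, whereas all CD8.1 samples lie above all B6 samples and all CD8.2 samples lie above those of CD8.1. Between the lineages its log2 fold change was -0.062 in B6 mice (95% interval -0.22 to 0.095, edgeR adjusted P = 0.624) and -0.28 in CD8 Dual mice (SE 0.073, 95% interval -0.44 to -0.13, edgeR adjusted P = 0.00903). *Gimap8*, the member with the longest coding sequence, ran from 168 to 183 CPM in B6 CD4+, 165 to 193 in CD8.1, 161 to 173 in B6 CD8+ and 186 to 189 in CD8.2 T cells. Its lineage differences did not pass, with a log2 fold change of 0.082 in B6 mice (edgeR adjusted P = 0.489) and -0.10 in CD8 Dual mice (edgeR adjusted P = 0.333). Without CD8.1 replicate 1 the CD8 Dual difference of *Gimap8* passed, at a log2 fold change of -0.19 (edgeR adjusted P = 0.0247, in a range up to 0.606 with other samples left out).

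**Figure D2:**
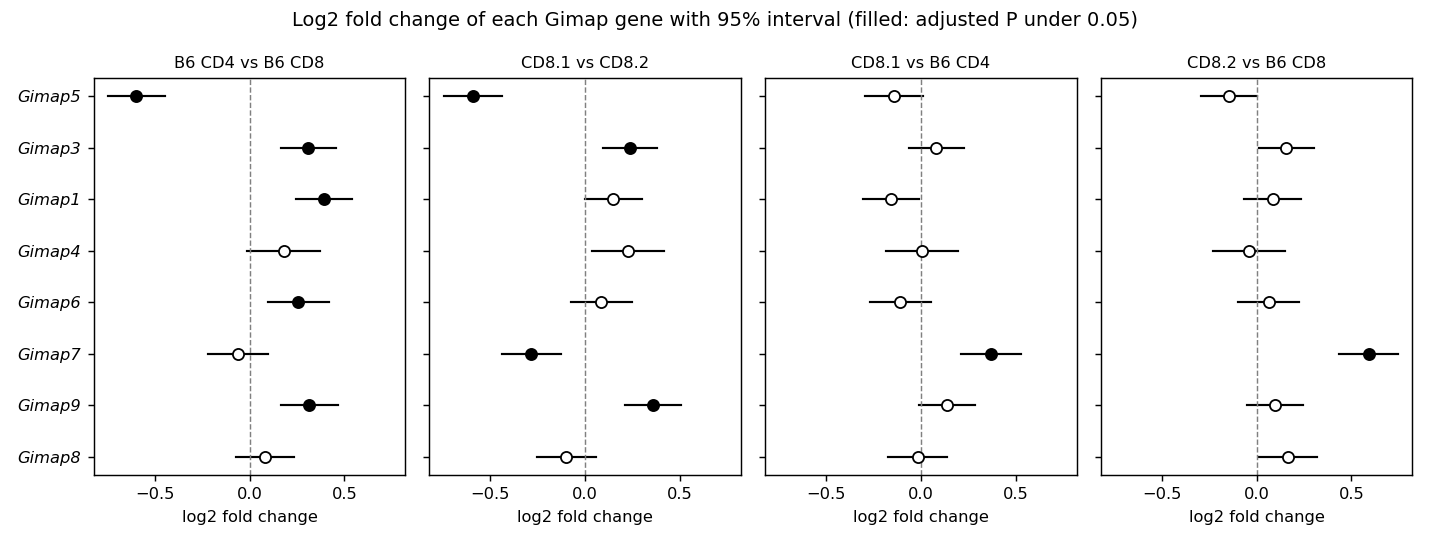
Log2 fold change of each *Gimap* gene in 4 comparisons. Points are edgeR estimates over 3 samples a group, bars their 95% intervals, and filled points have an adjusted P under 0.05. *Gimap5* lies at -0.60 and -0.59 in the lineage comparisons (left), and *Gimap7* at 0.37 and 0.59 in the comparisons between strains (right).

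Between the strains, *Gimap7* was the member that differed: it was higher in CD8 Dual mice on the helper side, by 1.29-fold, and on the cytotoxic side, by 1.51-fold. From B6 CD4+ to CD8.1 T cells its log2 fold change was 0.37 (SE 0.074, 95% interval 0.21 to 0.53, edgeR adjusted P = 0.00543). From B6 CD8+ to CD8.2 T cells it was 0.59 (SE 0.073, 95% interval 0.43 to 0.75, edgeR adjusted P = 0.000261), the gene ranking 39 of 13118 by P. Both *Gimap7* calls stood with each of the 6 samples of a comparison left out in turn, CD8.2 replicate 3 included. On the helper side, 1 of the 8 members was called higher in CD8.1 T cells, against 6.94% of all tested genes, and edgeR called 0 lower, against 5.82%. On the cytotoxic side, 1 of the 8 was called higher in CD8.2 T cells, against 3.29%, and 0 lower, against 4.66%, or 2 in all when edgeR was fitted to the compared groups alone, where *Gimap8* joined. With no adjustment, 2 members on the helper side and 3 on the cytotoxic side had a P under 0.05, against 28.7% and 23.7% of all tested genes, and DESeq2 and limma voom each called 1 on either side. All genes called there numbered 2103 and 1483 by DESeq2 and 1686 and 1120 by limma voom. A count of 1 in 8 is read here as a result about *Gimap7* and not about the family. The helper-side background rests on 1674 called genes, which became 674 with the compared groups alone and 765 to 2958 with 1 sample left out. The cytotoxic-side background rests on 1042, which became 2515 and 431 to 802, with 440 without CD8.2 replicate 3. The median log2 fold change of the 8 was -0.0059 on the helper side and 0.090 on the cytotoxic side, beside 0.0025 and -0.0035 over all tested genes.

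*Gimap5* was on the lower side in CD8 Dual mice in both comparisons, without passing: its log2 fold change was -0.14 between CD8.1 T cells and B6 CD4+ cells (95% interval -0.29 to 0.011, edgeR adjusted P = 0.205) and -0.15 between CD8.2 and B6 CD8+ T cells (95% interval -0.30 to 0.0044, edgeR adjusted P = 0.227). The 3 samples of one strain did not overlap those of the other in either case. The share of all tested genes apart in this way was not counted, so no difference is read from it. The other members that did not pass had log2 fold changes between -0.16, for *Gimap1* on the helper side, and 0.17, for *Gimap8* on the cytotoxic side. *Gimap8* on the helper side was at -0.016, and at 0.013 with upper quartile scaling.

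Marker genes of other cell states differed in the comparisons between strains and in those between lineages. All 10 of the 10 regulatory T cell markers were called higher in CD8.1 than B6 CD4+ T cells, against 6.94% of all tested genes. They summed to 236, 275 and 342 CPM in B6 CD4+, 630.3, 702 and 669.6 in CD8.1, 80.7, 85.2 and 85.5 in B6 CD8+ and 87.2, 87.0 and 84.3 in CD8.2. *Tnfrsf18* was the most abundant of them with the 12 samples pooled, though in CD8.1 T cells *Foxp3* led, at a mean of 139.7 CPM, and 0 of the 10 were at 0 in any sample. In CD8.2 T cells, 2 of the 10, *Ctla4* and *Foxp3*, were called higher than in B6 CD8+ T cells, against 3.29%. Of the 10 memory or activation markers, 7 were called higher in CD8.1 than B6 CD4+ T cells, against 6.94% of all tested genes. In CD8.2 T cells, 4 of them were called lower than in B6 CD8+ T cells, against 4.66%. The 10 memory markers summed to 214, 234 and 269 CPM in B6 CD4+, 498.5, 487 and 447 in CD8.1, 1165, 1175 and 1305 in B6 CD8+ and 769.99, 822 and 788 in CD8.2, with *Il2rb* the most abundant in each group and 0 of 10 at 0 in any sample. Between the lineages, where *Gimap5*, *Gimap3* and *Gimap9* differed, 9 of the 10 regulatory T cell markers were called higher in B6 CD4+ T cells and 10 in CD8.1 T cells. Of the 10 memory markers, 7 were called lower and 1 higher in B6 CD4+ T cells, and 6 lower and 2 higher in CD8.1 T cells. Among all tested genes, 11.4% were called higher and 11.7% lower in B6 mice, and 14.9% and 13.8% in CD8 Dual mice. The sort favours naive cells, and the part of these cell states in the *Gimap* results was not tested.

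B cell, myeloid and NK markers were counted as traces of other cells, and some of their counts are near the shares of all tested genes given above. The 10 B cell markers summed to 87.0, 92.0 and 104 CPM in B6 CD4+, 181, 179.6 and 118 in CD8.1, 86.3, 69.5 and 79.7 in B6 CD8+ and 136, 145 and 80.3 in CD8.2, with *Cd79b* the most abundant in the cytotoxic-side groups and *Cd79a* in the helper-side groups, 0 of 10 at 0 in any sample, and 2 of 10 called higher in CD8.1 than B6 CD4+ and 3 of 10 in CD8.2 than B6 CD8+ T cells. The 10 myeloid and dendritic markers summed to 6.14, 9.18 and 11.8 CPM in B6 CD4+, 20.5, 19.3 and 14.8 in CD8.1, 4.34, 3.89 and 9.09 in B6 CD8+ and 10.7, 22.2 and 8.92 in CD8.2. *Lyz2* was the most abundant of these except in B6 CD8+ T cells, where *Fcgr3* was, 2 of the 6 tested were called higher in CD8.1 than B6 CD4+ T cells and 1 in CD8.2 than B6 CD8+, *Cd14* was at 0 in 10 samples, *Clec9a* in 5, *Siglech* and *Xcr1* in 3 each, and *Adgre1* and *Flt3* in 1 each. The 5 NK markers summed to 1.27, 2.11 and 2.81 CPM in B6 CD4+, 2.24, 3.98 and 1.99 in CD8.1, 12.5, 15.8 and 19.7 in B6 CD8+ and 5.92, 6.33 and 5.16 in CD8.2, with *Gzma* the most abundant except in B6 CD8+ T cells, where *Klre1* was, and *Ncr1* at 0 in 2 samples, *Klre1* in 1 and *Klrk1* in 1. Of the 4 NK markers tested, 1 was called higher in CD8.1 than B6 CD4+ and 2 lower in CD8.2 than B6 CD8+ T cells. On the helper side 6 of 10 B cell markers were called higher and 1 lower in B6 mice and 3 higher in CD8 Dual mice, and of the 4 NK markers 3 and 2 were called lower, beside 11.4% and 14.9% of all tested genes higher and 11.7% and 13.8% lower. Of the 6 myeloid markers tested, 1 and 2 were called higher on the helper side. B cells also express *Gimap* genes. The sort for the TCRβ chain is meant to exclude them, and the part of any that remain in the results was not tested.

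Whether the lineage difference itself changed with the strain was tested as an interaction, the log2 fold change of CD8.1 against CD8.2 minus that of B6 CD4+ against B6 CD8+. edgeR called 0 of the 8 higher, against 1.58% of all tested genes, and 0 lower, against 0.29%, while 2 had an unadjusted P under 0.05, against 13.3% of all tested genes, and DESeq2 and limma voom called 0. This background rests on 245 called genes, which became 620 with no filter and 410 by DESeq2. With 1 sample left out it was 165 to 1356, the highest without CD8.1 replicate 1. For *Gimap5* the interaction was 0.0039 (95% interval -0.21 to 0.22), which bounds any difference between the strains in its lineage change. The members under an unadjusted P of 0.05 were *Gimap1*, at -0.24 (95% interval -0.45 to -0.034, edgeR adjusted P = 0.299), and *Gimap7*, at -0.22 (95% interval -0.44 to -0.00053, edgeR adjusted P = 0.375). The lineage gap of *Gimap7*, called in CD8 Dual mice and not in B6 mice, was therefore not shown to differ between the strains, and the same holds for *Gimap1* and *Gimap6*, called in B6 mice alone.

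The comparisons across both lineage and strain share their samples with those above. In CD8.1 against B6 CD8+ T cells, 4 of the 8 were called higher, against 19.6% of all tested genes, and 1 lower, against 19.5%, or 7 in all with upper quartile scaling, where *Gimap4* and *Gimap6* joined (all genes called numbered 5169 with that scaling, against 5131). The lower one was *Gimap5*, at a log2 fold change of -0.74 (SE 0.071, 95% interval -0.89 to -0.59, edgeR adjusted P = 1.2e-06), and the higher ones were *Gimap9* at 0.45, *Gimap3* at 0.39, *Gimap7* at 0.31 and *Gimap1* at 0.23. The *Gimap1* call ended without B6 CD8+ replicate 2 (edgeR adjusted P = 0.0581) and without B6 CD8+ replicate 3 (0.123, at a log2 fold change of 0.15), in a range from 0.0221. It was 0.0701 in edgeR with no filter and 0.0621 with the compared groups alone, within 0.00332 to 0.0701 over the 8 other settings. *Gimap4* passed here without B6 CD8+ replicate 3 (edgeR adjusted P = 0.0259, in a range up to 0.405), and *Gimap6* without CD8.1 replicate 1 (0.0101, in a range up to 0.439). In CD8.2 against B6 CD4+ T cells, 2 of the 8 were called higher, against 13.3%, and 2 lower, against 13.6%. With upper quartile scaling 5 in all were called there, where *Gimap6* joined, with a filter of a mean of at least 1 CPM 5, where *Gimap6* joined, with DESeq2 6, where *Gimap3* and *Gimap6* joined, and with the compared groups alone 7, where *Gimap3*, *Gimap4* and *Gimap6* joined. All genes called numbered 3495, 3233, 3734 and 4031 in these fits, against 3525. *Gimap7* at 0.65 and *Gimap5* at 0.45 were higher, and *Gimap1* at -0.31 and *Gimap9* at -0.22 were lower. *Gimap4* passed in this comparison without B6 CD4+ replicate 1, at a log2 fold change of -0.28 (edgeR adjusted P = 0.0465, in a range up to 0.223).

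The 8 genes lie side by side on chromosome 6, from *Gimap8* to *Gimap3*, at chr6:48647234-48770851 of the mouse genome GRCm38 (GENCODE M21), a span of 123618 bases. In order of position they are *Gimap8* (ENSMUSG00000064262.7), *Gimap9* (ENSMUSG00000051124.6), *Gimap4* (ENSMUSG00000054435.16), *Gimap6* (ENSMUSG00000047867.11), *Gimap7* (ENSMUSG00000043931.10), *Gimap1* (ENSMUSG00000090019.5), *Gimap5* (ENSMUSG00000043505.8) and *Gimap3* (ENSMUSG00000039264.9). *Gimap3* and *Gimap6* are on the minus strand and the other 6 on the plus strand. *Gimap5*, lower on the helper side, sits between *Gimap1*, 2401 bases upstream, and *Gimap3*, 10253 bases downstream, which were higher there in B6 mice. *Gimap7*, higher in CD8 Dual mice, lies between *Gimap6*, 10395 bases away, and *Gimap1*, 14417 bases away, which were not called between the strains. The altered *Cd4* locus of CD8 Dual mice is on the same chromosome, 76.1 megabases past *Gimap3*, and any part of that linkage in the strain difference of *Gimap7* was not tested.

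**Figure D3:**
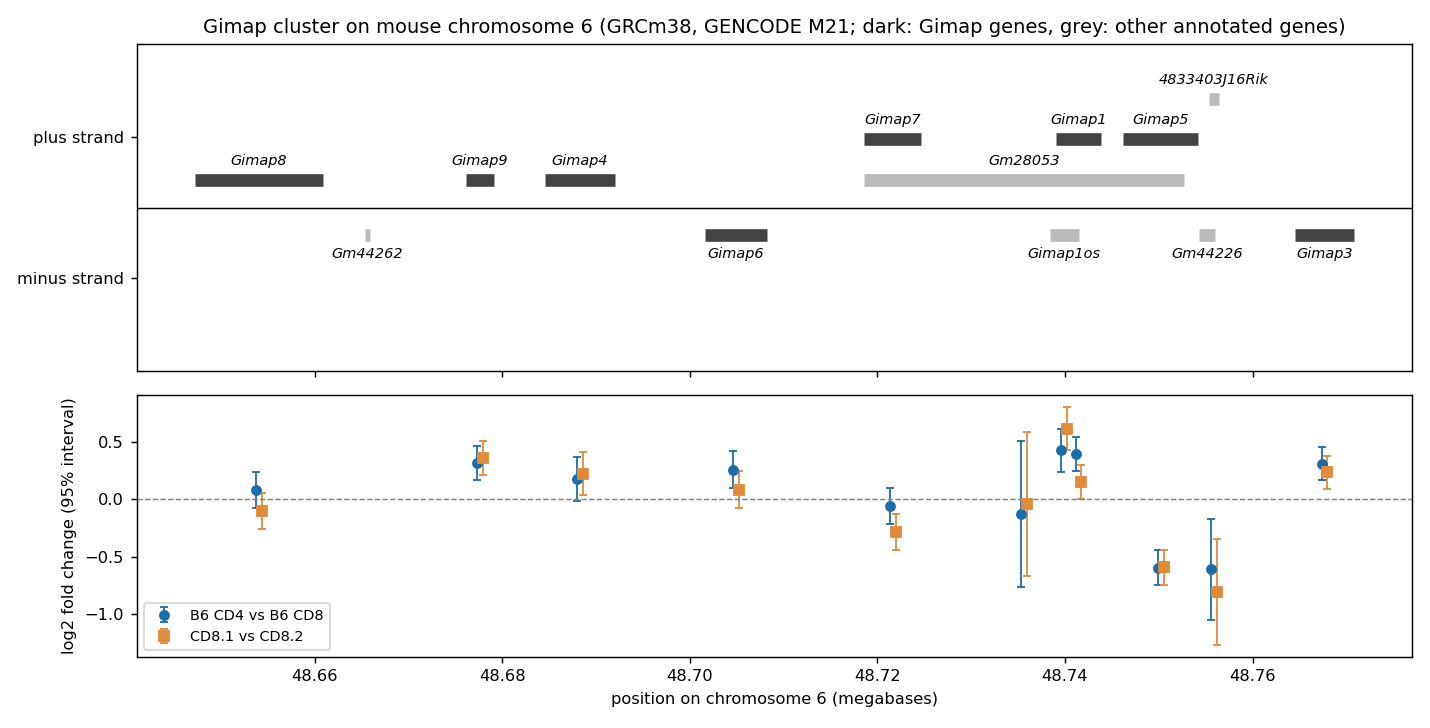
The *Gimap* cluster on chromosome 6 (GRCm38) with the lineage difference of each gene. The upper panel draws annotated genes to scale by strand, *Gimap* genes dark and others grey, and the lower panel gives edgeR log2 fold changes with 95% intervals for B6 CD4+ against B6 CD8+ (circles) and CD8.1 against CD8.2 T cells (squares). *Gimap5* lies below 0, at -0.60 and -0.59, between *Gimap1* and *Gimap3*, which lie above it.

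Other transcripts are annotated inside the cluster. *4833403J16Rik*, a long noncoding RNA that starts 1127 bases past *Gimap5* on the same strand, stood at 8.60, 5.78 and 5.23 CPM in the B6 CD4+ samples, 4.30, 3.72 and 4.23 in CD8.1, 11.6, 9.74 and 8.52 in B6 CD8+ and 9.15, 5.50 and 6.68 in CD8.2. The B6 groups overlap by a little and the CD8 Dual groups do not. Like *Gimap5* it was lower on the helper side, with a log2 fold change of -0.61 in B6 mice (SE 0.21, edgeR adjusted P = 0.0433) and -0.81 in CD8 Dual mice (SE 0.22, edgeR adjusted P = 0.0120). *Gimap1os*, an antisense transcript that shares 36.0% of the exon bases of *Gimap1*, stood at 38.7, 46.5 and 40.6 CPM in B6 CD4+, 40.8, 44.7 and 42.2 in CD8.1, 28.6, 33.0 and 31.9 in B6 CD8+ and 27.2, 27.4 and 28.6 in CD8.2. It was higher on the helper side in both strains, with no overlap, by a log2 fold change of 0.43 in B6 mice (SE 0.088, edgeR adjusted P = 0.00197) and 0.62 in CD8 Dual mice (SE 0.089, edgeR adjusted P = 9.2e-05). How the counting split reads between *Gimap1* and *Gimap1os* is not known, since the use of strand is not stated. *Gm28053*, whose exons overlap those of *Gimap7*, *Gimap1* and *Gimap5*, was near 1 CPM in all groups and not called in either lineage comparison, and *Gm44262* and *Gm44226* had too few counts to be tested.

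The 10 nearest tested protein-coding genes around the *Gimap* cluster, 5 on each side, held some lineage changes larger than those of the *Gimap* genes and some of similar size or smaller. *Zfp467*, on the side of *Gimap8*, had a log2 fold change of 2.53 in B6 mice (SE 0.22, edgeR adjusted P = 4.9e-07) and 2.89 in CD8 Dual mice (SE 0.23, edgeR adjusted P = 1.5e-07). *Gpnmb*, on the side of *Gimap3*, was also called higher on the helper side in both strains, at levels from 1.43 to 2.87 CPM there and near the count floor on the cytotoxic side. Of the genes next to the ends of the cluster, *AI854703* beside *Gimap8* did not pass in either lineage comparison, and *Tmem176b* beside *Gimap3* passed in CD8 Dual mice, at 1.22 (SE 0.21, edgeR adjusted P = 0.000520). *Tmem176a*, at 1.28 (SE 0.25, edgeR adjusted P = 0.00142), and *Lrrc61*, at 0.41 (SE 0.081, edgeR adjusted P = 0.00158), also passed in CD8 Dual mice. *Repin1* passed in B6 mice, at -0.70 (SE 0.24, edgeR adjusted P = 0.0439), and *Zfp775*, *Malsu1* and *Igf2bp3* passed in neither strain. The interaction of the genes that passed in 1 strain was 0.61 for *Tmem176b*, 0.96 for *Tmem176a*, 0.29 for *Lrrc61* and 0.54 for *Repin1*, and did not pass (edgeR adjusted P = 0.401, 0.260, 0.292 and 0.512).

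*Gimap3* and *Gimap5* are close relatives whose reads could be confused, and they moved in opposite directions, so their sequences were compared. Their coding sequences, of 903 and 924 bases, are identical at 87.9% of aligned bases, beside 65.0% for the next pair compared in this way, *Gimap7* and *Gimap9*, with coding sequences of 879 and 873 bases (*Gimap8*, more than double their length, set aside). Of the windows as long as a read in the transcripts of *Gimap3*, 16 of 2453, or 0.652%, also occur in *Gimap5*, and these are 0.375% of the 4270 windows of *Gimap5*. Windows of 50 bases are shared at 7.52% and 4.53%. *Gimap5* shares more read-length windows, 30 or 0.703%, with *Gm28053*. The other 6 members share no window of either length with another member, and *Gimap1* shares 26.8% of its read-length windows with *Gimap1os*. If the counts of *Gimap3* and *Gimap5* are added, the sum takes the sign of the far more abundant *Gimap3*. Its log2 fold change was 0.21 for the B6 lineages (edgeR adjusted P = 0.0289). For those of CD8 Dual mice it was 0.16 and did not pass (edgeR adjusted P = 0.0835). The stretch below is the longest identical run, 140 bases, with its ends out to 170 bases, shown because it is where a read cannot tell these members apart. It covers bases 160 to 329 of the coding sequence of *Gimap3* (chr6:48765666-48765835, minus strand) and bases 172 to 341 of that of *Gimap5* (chr6:48752669-48752838, plus strand) in GRCm38, and capitals mark the 2 bases that differ.
*Gimap3*: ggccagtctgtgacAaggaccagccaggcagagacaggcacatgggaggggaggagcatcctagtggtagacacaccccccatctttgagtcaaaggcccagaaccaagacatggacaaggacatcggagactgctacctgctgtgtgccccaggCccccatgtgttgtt
*Gimap5*: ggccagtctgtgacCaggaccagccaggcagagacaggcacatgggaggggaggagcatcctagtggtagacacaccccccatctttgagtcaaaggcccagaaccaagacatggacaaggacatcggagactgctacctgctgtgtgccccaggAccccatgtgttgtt

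Promoters of all 8 members, from 250 bases before to 50 after the start of the gene, were taken from RefSeq (GRCm38.p6), with 1 window for each member but *Gimap8*, which has 2. Letters bound by factors known in T cells were searched on both strands, each given with the share of all 32851 promoter windows that hold it. TGTGGT (RUNX) is in 16.8% of windows and in those of *Gimap1*, *Gimap4* and *Gimap7*, and TGCGGT (RUNX) is in 6.45% and in that of *Gimap9*. GTAAACA (FOXO) is in 3.65% and in that of *Gimap3*, CTTTGA (TCF and LEF) in 16% and in those of *Gimap4* and *Gimap7*, and TATAAA (the TATA box) in 13.6% and in that of *Gimap6*. CACCC (KLF) is in 57.5% of windows and in those of *Gimap3*, *Gimap4*, *Gimap5*, *Gimap8* and *Gimap9*, and CANNTG (E-box) is in 72.3% and in those of *Gimap4*, *Gimap5*, *Gimap6*, *Gimap7*, *Gimap8* and *Gimap9*. CCGGAAG (ETS), in 8.86% of windows, and AGATAA (for GATA factors), in 11.2%, are in 0 of the 8. An E-box match overlaps the RUNX letters in the windows of *Gimap4* and *Gimap9*. A match is a description, and no match says that these letters are not in the window.

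The promoter windows of *Gimap5* (chr6:48745947-48746246, plus strand), *Gimap3* (chr6:48770802-48771101, minus strand) and *Gimap7* (chr6:48718371-48718670, plus strand) are shown because the first pair moved in opposite directions between the lineages and *Gimap7* moved between the strains. Capitals mark matches to RUNX, FOXO, TCF and LEF, ETS, GATA and TATA letters on either strand, so that TGTGGT on the other strand reads ACCACA. The commoner KLF and E-box letters are left in lower case, and the window of *Gimap5* has no capitals.
*Gimap5*: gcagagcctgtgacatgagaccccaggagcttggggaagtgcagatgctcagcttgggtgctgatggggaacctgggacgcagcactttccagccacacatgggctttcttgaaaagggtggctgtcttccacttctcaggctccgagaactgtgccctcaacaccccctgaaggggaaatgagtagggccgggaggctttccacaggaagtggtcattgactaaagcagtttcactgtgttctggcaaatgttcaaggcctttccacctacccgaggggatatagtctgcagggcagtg
*Gimap3*: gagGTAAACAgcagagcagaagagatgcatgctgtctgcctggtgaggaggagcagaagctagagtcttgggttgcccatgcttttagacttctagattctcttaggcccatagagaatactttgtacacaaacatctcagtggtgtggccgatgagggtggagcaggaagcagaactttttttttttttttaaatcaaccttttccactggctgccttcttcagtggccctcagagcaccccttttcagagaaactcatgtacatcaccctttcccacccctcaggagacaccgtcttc
*Gimap7*: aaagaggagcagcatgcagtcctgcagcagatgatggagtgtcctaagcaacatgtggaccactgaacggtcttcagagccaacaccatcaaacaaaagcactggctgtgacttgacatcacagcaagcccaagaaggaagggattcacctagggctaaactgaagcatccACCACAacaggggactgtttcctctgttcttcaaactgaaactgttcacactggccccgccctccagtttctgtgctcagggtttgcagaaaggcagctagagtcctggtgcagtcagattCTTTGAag

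The likeness of expression profiles was measured as the root mean square difference of log2 CPM over the 12 samples, each gene centred on its mean. Among the members, *Gimap3* and *Gimap9* were the most alike, at 0.0958, followed by *Gimap1* and *Gimap3*, at 0.1003, and *Gimap5* and *Gimap9* were the least alike, at 0.488. *Gimap5* differed from every other member by 0.325 or more, and *Gimap7* from every other member by 0.238 or more. The spread of each member about its own mean was 0.310 for *Gimap5*, 0.268 for *Gimap7*, 0.186 for *Gimap9*, 0.159 for *Gimap1* and for *Gimap3*, 0.139 for *Gimap4*, 0.119 for *Gimap6* and 0.0851 for *Gimap8*, beside a median of 0.234 over all tested genes. *Gimap5* and *Gimap7* thus lay above this median and the other members below it. The genes behind the median were not matched to the members in level, so no steadiness of the family is read from it.

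By the same measure, the tested genes nearest *Gimap5* were *Gm17018*, at 0.0742, and *Gar1*, at 0.0787, and those nearest *Gimap7* were *Ggta1*, at 0.0966, and *Cacybp*, at 0.1003. *Gimap3* was nearest to *Blcap* and *Tmbim6*, at 0.0402 and 0.0505, *Gimap9* to *Ywhah* and *Gabpb1*, at 0.0460 and 0.0466, and *Gimap1* to *Tspo* and *Snx14*, at 0.0638 and 0.0640. *Gimap4* was nearest to *Irf9* and *Taldo1*, at 0.0512 and 0.0614, *Gimap6* to *Dapk3* and *Hdac1*, at 0.0591 and 0.0596, and *Gimap8* to *Etf1* and *Hadhb*, at 0.0410 and 0.0424. These neighbours are a ranking over 13118 genes and 12 samples. The mean profile of the 8 was nearest to *Ppp2ca*, *Atg4b*, *Sec23b*, *Ldha* and *Morf4l1*, at 0.0346 to 0.0407, and with members moving in opposite directions it is nearly flat.

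A list of genes around GIMAP function and a list of other immune GTPases are given by their counts. Of 14 genes for survival, autophagy and GSK3 signalling, 1 was higher and 1 lower in B6 CD4+ than in B6 CD8+ T cells, against 11.4% and 11.7% of all tested genes, with a median log2 fold change of -0.0047. In CD8 Dual mice 3 were higher and 1 lower in CD8.1 than CD8.2 T cells, against 14.9% and 13.8%, with a median of 0.040, so that these counts are near the background. *Bcl2*, the survival gene whose protein GIMAP members have been reported to bind, stood at 114, 111 and 103 CPM in B6 CD4+, 97.7, 66.4 and 74.1 in CD8.1, 163, 167 and 169.6 in B6 CD8+ and 99.4, 101 and 96.4 in CD8.2. Like *Gimap5* it was lower on the helper side, by a log2 fold change of -0.60 in B6 mice (SE 0.11, edgeR adjusted P = 0.000557) and -0.32 in CD8 Dual mice (SE 0.11, edgeR adjusted P = 0.0386), but its groups overlap in CD8 Dual mice. The other called genes of the list went the other way. *Mcl1* was higher in B6 CD4+ T cells, and *Bcl2l1*, *Gabarap* and *Gabarapl1* were higher in CD8.1 T cells. Between the strains, 2 of the 14 were higher and 1 lower in CD8.1 than B6 CD4+ T cells, against 6.94% and 5.82%, and by edgeR 0 were higher and 2 lower in CD8.2 than B6 CD8+ T cells, against 3.29% and 4.66%. *Bcl2* was called lower in CD8 Dual mice in both of these, where *Gimap5* did not pass. *Gabarapl1* was called higher in CD8.1 and lower in CD8.2 T cells, and *Gabarap* higher in CD8.1.

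*Slfn2*, a gene of naive T cell quiescence, was higher on the helper side, as *Gimap3* and *Gimap9* were, by a log2 fold change of 0.72 in B6 CD4+ (SE 0.081, edgeR adjusted P = 6.9e-06) and 0.37 in CD8.1 T cells (SE 0.080, edgeR adjusted P = 0.00261). Of 18 other immune GTPases of the GBP and IRG families, 17 were tested, and 1 was higher and 9 lower in B6 CD4+ than in B6 CD8+ T cells, against 11.4% and 11.7% of all tested genes, with a median of -0.49. In CD8 Dual mice edgeR called 0 of these higher and 14 lower in CD8.1 than CD8.2 T cells, against 14.9% and 13.8%, with a median of -0.54. *Tgtp2*, an IRG gene, had -0.89 in B6 mice (SE 0.13, edgeR adjusted P = 7.1e-05) and -0.97 in CD8 Dual mice (SE 0.13, edgeR adjusted P = 3.4e-05).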

How the data were processed

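The deposited values are raw counts per gene: the authors mapped the read pairs against mm10 by STAR and counted by RSEM, and no normalization was applied. The labels name no version, annotation release or use of strand. Groups and replicate numbers come from the labels, with 0 columns left unmapped.

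Counts were analysed here in R 4.3.3 with edgeR 4.0.16 (TMM scaling, filterByExpr over the groups, glmQLFit and glmQLFTest), which left 13118 of 49585 genes. All 12 samples entered 1 model with a mean per group. A call is an adjusted P under 0.05, after Benjamini and Hochberg, over every gene tested. Standard errors are the log2 fold change over the square root of F. The replicate P values measure the spread between pools of cells. Profiles use log2 CPM with a prior count of 2. The fit was tested on simulated data, in a form that was revised once, because the first form failed its own limit after tying the size of the change to the position of a gene in the table. The revised form, with random changes and another seed, met a limit that covers changes of 2-fold in genes of 20 CPM or more, so calls on genes under 20 CPM, such as *4833403J16Rik*, *Zfp467*, *Gpnmb* and *Tmem176b*, are not covered by it. The changes of the members are smaller than 2-fold.

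After removal of the group means, samples of equal number in the B6 groups correlated at 0.126 or more over genes, above 0.1, and were taken as paired for the replicate block.

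The members and lists were chosen with earlier results of these data known. Genes named are the members, other genes in the cluster, the 5 nearest tested protein-coding genes on each side, lineage genes as a check of the labels, *Gm42418* (picked after the values of the libraries were seen), from each list up to 4 called genes with the largest change, and the genes with the nearest profiles (2 for each member, 5 for the mean profile). Gene models are from GENCODE M21 and promoters from RefSeq. Alternatives were DESeq2 1.42.0 (its size factors or its Wald test), limma voom 3.58.1, upper quartile scaling, no filter or a mean of at least 1 CPM, the compared groups alone, the replicate block, each sample left out in turn, an unadjusted P, the study's fold limit, summed pairs of related members, the sum without its most abundant member and a prior count of 0.5. Figures were drawn with matplotlib 3.10.9.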

Additional observations from a re-analysis of the deposited data

How the results depend on the processing

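Over the 8 other scalings, tests, filters and fits, *Gimap5* kept its call in both lineage comparisons, *Gimap1*, *Gimap6*, *Gimap3* and *Gimap9* kept theirs in B6 mice, *Gimap7* and *Gimap9* kept theirs between CD8.1 and CD8.2, and *Gimap7* kept its call in both comparisons between strains. With each of 6 samples left out in turn, the calls of *Gimap1*, *Gimap3*, *Gimap5* and *Gimap9* in B6 mice, of *Gimap5*, *Gimap7* and *Gimap9* in CD8 Dual mice and of *Gimap7* between strains stood in 6 of 6, and that of *Gimap6* in B6 mice in 3 of 6. Each such fit has 2 samples in 1 group.

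The limit of over 5-fold gave 0 members in every comparison and 431 genes in all for B6 CD4+ against B6 CD8+, 435 for CD8.1 against CD8.2, 80 for CD8.1 against B6 CD4+, 76 for CD8.2 against B6 CD8+, 532 for CD8.1 against B6 CD8+, 358 for CD8.2 against B6 CD4+ and 152 for the interaction. An unadjusted P under 0.05 gave 2 members for CD8.1 against B6 CD4+ (28.7% of all tested genes), 3 for CD8.2 against B6 CD8+ (23.7%), 7 for CD8.2 against B6 CD4+ (37.1%) and 2 for the interaction (13.3%). With the compared groups alone, 2 members were called for CD8.2 against B6 CD8+ and 7 for CD8.2 against B6 CD4+, and the genes called in all were 674 for CD8.1 against B6 CD4+ and 2515 for CD8.2 against B6 CD8+. With no filter there were 1593 for CD8.2 against B6 CD8+ and 620 for the interaction, and DESeq2 gave 410 for the interaction. The fits of the compared groups use fewer samples, and the causes were not tested.

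With 1 sample left out, members called ranged from 4 to 5 for B6 CD4+ against B6 CD8+, 3 to 5 for CD8.1 against CD8.2, 4 to 6 for CD8.1 against B6 CD8+ and 3 to 5 for CD8.2 against B6 CD4+, and stayed at 1 in both comparisons between strains and at 0 for the interaction. Genes called in all ranged from 2418 to 2704, 2632 to 5013, 4106 to 5757 and 2491 to 3047 in the first 4, from 765 (without B6 CD4+ replicate 1) to 2958 (without CD8.1 replicate 1) for CD8.1 against B6 CD4+, where leaving out B6 CD4+ replicate 2 gave 872 and CD8.1 replicate 2 gave 845, from 431 to 802 for CD8.2 against B6 CD8+, where leaving out B6 CD8+ replicate 1 or 2 gave 476 and 431 and CD8.2 replicate 1, 2 or 3 gave 554, 441 and 440, and from 165 to 1356 (without CD8.1 replicate 1) for the interaction. These counts set the background shares.

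Differences near 0 changed sign. For *Gimap4* in CD8.1 against B6 CD4+ the log2 fold change was -0.0031 with no filter, -0.00084 with the compared groups alone and -0.061 to 0.056 with 1 sample left out. For *Gimap8* there it was 0.013 with upper quartile scaling and -0.10 to 0.020 with 1 sample left out. With 1 sample left out it was also -0.10 to 0.043 for *Gimap4* in CD8.2 against B6 CD8+ and -0.023 to 0.099 for *Gimap8* in CD8.1 against B6 CD8+, and the interaction was -0.058 to 0.11 for *Gimap4*, -0.039 to 0.036 for *Gimap5* and -0.012 to 0.064 for *Gimap9*. The *Gimap5* interaction was -0.0082 with no filter.

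In a sum of related members the more abundant one weighs more by construction. *Gimap5* with *Gimap3* gave 0.21 for B6 CD4+ against B6 CD8+, 0.16 for CD8.1 against CD8.2, 0.065 for CD8.1 against B6 CD4+, 0.12 for CD8.2 against B6 CD8+, 0.28 for CD8.1 against B6 CD8+, -0.094 for CD8.2 against B6 CD4+ and -0.053 for the interaction. This sum passed for B6 CD4+ and for CD8.1 against B6 CD8+ (edgeR adjusted P = 0.0289 and 0.00382). It did not pass in the others, among them CD8.1 against CD8.2 (0.0835), where *Gimap3* alone was called. *Gimap7* with *Gimap9* gave 0.19 for B6 CD4+ against B6 CD8+ (edgeR adjusted P = 0.0341). For CD8.1 against CD8.2, where *Gimap9* was called higher and *Gimap7* lower, it gave 0.11 and did not pass (0.193). Between the strains, where *Gimap7* was called and *Gimap9* was not, this sum passed in edgeR, at 0.21 (adjusted P = 0.0370) for CD8.1 against B6 CD4+ and 0.29 (0.0105) for CD8.2 against B6 CD8+. The sum also gave, set against *Gimap9*, 0.098 for CD8.2 against B6 CD4+ and -0.081 for the interaction.

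The summed *Gimap* level was 2856 CPM in B6 CD4+ and 2416 in CD8.2 T cells as a raw share of counts, and 1978 CPM in B6 CD4+, 1976 in CD8.1, 1688 in B6 CD8+ and 1838 in CD8.2 without *Gimap4*. Of the 21 genes named for their profiles, 20 were the same with a prior count of 0.5.

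As to pairing by replicate number, the lowest correlation of equal numbers was -0.0039 between CD8.1 and CD8.2 and -0.22 between the strains, so these were not taken as paired. Of 3 pairs between CD8.1 and CD8.2, 1 was over 0.1, and not every sample correlated best with its own number. With the block, 6 members were called between the B6 lineages and 5 between CD8.1 and CD8.2, 1 in each comparison between strains and 0 for the interaction. It added *Gimap4* in both lineage comparisons, at an edgeR adjusted P of 0.0469 in B6 and 0.0156 in CD8 Dual mice, and changed no other call of a member.

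With 3 samples a group, the standard errors of the *Gimap* log2 fold changes were 0.067 to 0.089 in comparisons of groups, and differences of that size do not pass. Which cells in the sorted pools carry the differences was not measured.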
